A study of Homo sapiens with 72 samples.

Results

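Cytoplasmic mRNAs that were lost within 3 h although transcription and translation were both blocked were examined in A375 melanoma cells depleted of CTU2. The members were the 6 libraries of siCTU2-transfected cells exposed to triptolide and cycloheximide (the TCHX arm) and harvested at 0 h or 3 h, with 3 replicates at each time, of 72 libraries in the whole series. A375 is an established human melanoma line. Cells were transfected for 42 h with a pool of 2 siRNAs against CTU2 (siCTU2) or with the control siRNA siGL2, and then received 25 µM triptolide, which stops RNA polymerase II, either alone (the T arm) or together with 100 µg/ml cycloheximide, which stops ribosome elongation. Besides the 6 members, the T-arm siCTU2 libraries, the siGL2 libraries of both arms and the siCTU2 TCHX libraries at 5 h were used, with 3 replicates per group. All of these cells grew in medium with glutamine. The model is limited to 1 cell line, 1 pool of siRNAs and the RNA left in the cytoplasmic fraction.

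In mammalian cells an mRNA is usually destroyed after its poly(A) tail has been shortened and its cap removed. Sequence elements in the 3′ UTR, such as AU-rich elements, recruit deadenylases without any need for a ribosome, whereas other routes read the rate at which ribosomes move through the codons. CTU2 is a subunit of the enzyme that thiolates the wobble uridine of the tRNAs reading AAA and GAA codons, so its loss slows decoding of these codons. Cycloheximide freezes ribosomes on the mRNA, so the loss measured in its presence is the loss that goes on without elongation.

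The libraries were 3′-end counts per gene, and the 6 members held between 9376857 and 15534331 counted reads over 16759 to 17495 detected genes. CTU2 itself gave 25, 22 and 11 reads in the siCTU2 TCHX 0 h libraries and 2, 20 and 6 reads at 3 h, against 260 to 372 reads in the siGL2 TCHX libraries of the same times. The library labelled siCTU2 TCHX 5 h replicate 3 went against its label, with 117 CTU2 reads and 19896 detected genes. The 5 h values in the results are given without it, but it took part in the choice of stable genes described next. Of 12 melanoma markers, 10 were at 1 CPM (counts scaled to the library total) or more at 0 h. The summed level of the markers was 6287 to 7206 CPM at 0 h and 7122 to 7944 CPM at 3 h. Most of it was S100A6 and VIM, with 0 h means of 2963 and 2806 CPM. The pigment cell markers PMEL, MLANA and TYR were at 3.13, 0.06 and 0.15 CPM. The summed leukocyte markers were at 11.3 to 13.5 CPM and the summed fibroblast markers at 7.48 to 10.9 CPM at 0 h, with 1 of 5 and 3 of 6 genes at 0, respectively. Of 7 epithelial markers, 3 were at 0 and the sum was 161 to 182 CPM, nearly all of it KRT18 with a mean of 169 CPM. Counts were scaled to 198 genes that the study's own criteria class as stable after transcription arrest, so every change below is relative to these genes. A choice of stable genes made without any 5 h library gave 123 fast genes in place of 79. In bulk samples fewer cells of a kind and less RNA per cell cannot be told apart.

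Relative to the stable genes, most mRNAs fell slightly and few fell far. In the edgeR quasi-likelihood test with the replicate number as a block, 6637 of 12548 tested genes (52.9%) were lower at 3 h than at 0 h and 173 (1.38%) were higher at an adjusted p under 0.05. The median log2 change over genes with a mean of at least 50 normalised counts was -0.29, -0.33 and -0.38 in replicates 1 to 3, a mean of -0.33 ± 0.04 (SD, n = 3). Both the size and the direction of this general fall were set by the scale. The stable genes were chosen for a CPM at least 1.1 times higher at 3 h or 5 h, so a typical gene falls relative to them. With TMM, which assumes that most genes do not change, the median over all tested genes moved from -0.326 to 0.005 on the log2 scale and the counts became 926 lower and 611 higher. With stricter choices of stable genes the fall was larger, with a mean of -0.86 for the 8 genes that passed at both 3 h and 5 h. A change of scale moves all genes of a library together, and the account below is about genes that fell much further than the rest.

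Fast decay was defined as an adjusted p under 0.05, a log2 change of -2 or less and a mean of at least 50 normalised counts at 0 h, a description that the 3 h and 0 h libraries themselves supply. It held for 79 of 10141 genes at this level (0.779%). Among them were 29 of 9404 protein-coding genes (0.308%), 27 of 357 long non-coding RNAs (7.56%), 5 of 95 pseudogenes (5.26%), 4 of 35 small RNAs (11.4%) and 14 of 243 names outside the RefSeq table (5.76%). Just inside the boundary were TNFSF4 at -2.02, B3GNT5 at -2.08 and SMAD7 at -2.09, and just outside were HEXIM1 at -1.999, FOS at -1.97 and ASTE1 at -1.97. In 78 of the 79 all 3 h libraries lay below all 0 h libraries, where 50.5% of all tested genes did so. The exception was PFDN5, which had 370 normalised counts in 0 h replicate 3 and 8.89 and 9.37 in the other 0 h libraries. EEF1D rested on 1 library in the same way, with 2595 normalised counts in 0 h replicate 2 and 22.2 and 13.8 in replicates 1 and 3, a log2 change of -7.25. Both are protein-coding and stay in the counts, and the counts of differences, motifs and seeds are also given without them. The other fast genes numbered 77, of which 27 were mRNAs.

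**Figure D1:**
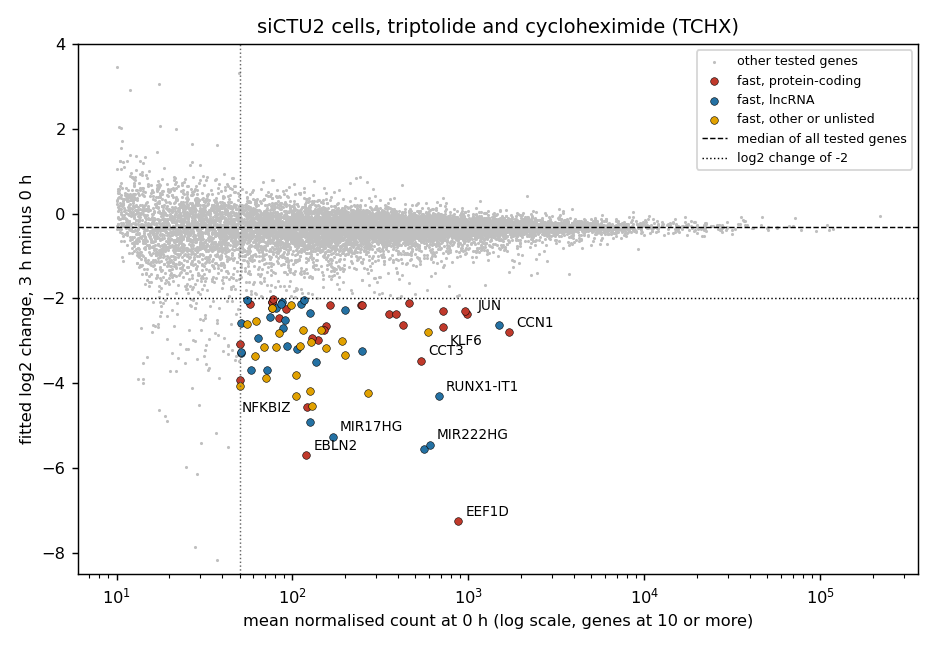
Log2 change from 0 h to 3 h in siCTU2 TCHX cells (vertical axis, edgeR fit) against the mean normalised count at 0 h (horizontal log axis), with 1 point per tested gene at a mean of 10 or more. Coloured points are the 79 fast genes, and the bulk of genes lies near the median of -0.326 while MIR222HG and NFKBIZ lie below -4. EEF1D, at -7.25, rests on 1 library.

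MIR222HG, the host transcript of miR-221 and miR-222, had 573, 635 and 598 normalised counts at 0 h and 12, 19.2 and 8.82 at 3 h. Every 3 h library was far below every 0 h library, and the log2 change of -5.45 ± 0.19 (SE) corresponds to a half-life of 0.551 h if decay is taken as exponential. MIR17HG, the host of the miR-17 to miR-92a cluster, fell from 166, 171 and 170 to 4.37, 1.37 and 7.94 normalised counts, a log2 change of -5.26 ± 0.33. Transcripts counted under the name MIR125B1 fell from 64.5, 72.6 and 74.2 to 3.28, 6.18 and 4.41, again without overlap. MIRLET7BHG, the host of let-7b, changed by -3.19 on the log2 scale. Of 12 microRNA host genes at this level, 3 were fast, against 0.779% of all genes and 7.56% of long non-coding RNAs at this level. Their median change was -1.37, against -0.33 over all genes at this level. These host RNAs are cut in the nucleus by Drosha, and the 3′-end counts are of host RNA, not of the mature microRNAs.

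The mature products of both hosts are shown because each pair shares its seed, bases 2 to 8, which is in capitals. The sequences are from RefSeq (GRCh38.p14), and the positions are inside the hosts, on the minus strand of chromosome X for MIR222HG and on the plus strand of chromosome 13 for MIR17HG.
hsa-miR-221-3p, chrX:45746180-45746202: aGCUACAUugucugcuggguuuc
hsa-miR-222-3p, chrX:45747036-45747056: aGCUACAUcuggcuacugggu
hsa-miR-17-5p, chr13:91350618-91350640: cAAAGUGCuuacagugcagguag
hsa-miR-20a-5p, chr13:91351072-91351094: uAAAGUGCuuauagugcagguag

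Transcripts named for their place inside an intron of another gene were a further non-coding group. RUNX1-IT1 fell from 757, 714 and 564 to 29.5, 43.3 and 28.2 normalised counts, a log2 change of -4.30. KIRREL1-IT1 fell from 255, 252 and 243 to 21.8, 30.9 and 25.6, with no overlap between the times. BIN3-IT1, ASAP1-IT1 and NPTN-IT1 changed by -3.69, -3.51 and -2.34, so that 5 of 8 such names at this level were fast and their median was -2.79. Of all genes at this level 0.779% were fast, and of long non-coding RNAs 7.56%. The counts for this group, the microRNA hosts and the LOC names come from the libraries that chose the fast genes and are a description. KCNQ1OT1, a long non-coding RNA that silences imprinted neighbours in cis, fell from 1372, 1404 and 1690 to 246, 239 and 236 normalised counts. It is known as a nuclear transcript, and these levels are those of the cytoplasmic extracts. Of 169 uncharacterised LOC names, 30 were fast, led by LOC112268009, which had 609, 507 and 561 normalised counts at 0 h and 10.9, 9.61 and 15.0 at 3 h. Of 264 ZNF genes, which encode zinc-finger proteins, 198 (75%) were lower, against 62.6% of all genes at this level, with a median of -0.58, and none was fast.

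NFKBIZ, a nuclear IκB protein that drives secondary NF-κB responses, had 100, 145 and 117 normalised counts at 0 h and 4.37, 8.93 and 1.76 at 3 h. Only 4.27% was left at 3 h, and the log2 change was -4.55 ± 0.36. EBLN2, a gene derived from an endogenous bornavirus, fell from 129, 122 and 109 to 1.09, 4.81 and 0 normalised counts. ZC3H12A, the endonuclease Regnase-1 that cleaves stem loops in inflammatory mRNAs, fell from 61.1, 53.9 and 35.2 to 9.83, 4.12 and 4.41. The libraries of the 2 times did not overlap for any of these 3 mRNAs.

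CCN1, a secreted matricellular protein induced by YAP and serum, was the most abundant fast mRNA described here. It had 1719, 2042 and 1359 normalised counts at 0 h and 265, 389 and 117 at 3 h. The fall of 2.80 ± 0.11 on the log2 scale left 14.3% at 3 h, a half-life of 1.07 h. Replicate 3 was the lowest at both times, and the times did not overlap.

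JUN, a subunit of AP-1, had 1082, 1093 and 779 normalised counts at 0 h and 201, 268 and 118 at 3 h. KLF6, a zinc-finger factor, fell from 755, 700 and 687 to 74.3, 182 and 82.9. JUN changed by -2.36 ± 0.11 and KLF6 by -2.68 ± 0.15, with replicate 2 the highest at 3 h for both. ID1, an inhibitor of basic helix-loop-helix factors, fell from 400, 464 and 508 to 115, 148 and 62.6. BHLHE40, HHEX and ZBTB18, all transcriptional repressors, changed by -2.12, -2.26 and -2.16.

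SPRY2, a feedback inhibitor of receptor tyrosine kinase signalling, fell from 983, 973 and 925 to 150, 317 and 136 normalised counts. TRIB1, a pseudokinase that brings substrates to the ubiquitin ligase COP1, fell from 431, 398 and 440 to 60.1, 84.5 and 58.2. SMAD7, the inhibitory SMAD of TGF-β signalling, fell from 72.3, 72.6 and 85.6 to 14.2, 24.7 and 15.0. Their log2 changes were -2.30, -2.64 and -2.09, and none of the 3 overlapped between the times.

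FLRT3, a cell adhesion receptor, fell from 382, 430 and 354 to 61.2, 89.9 and 73.2 normalised counts. ETAA1, an activator of the ATR kinase, and MCPH1, a chromosome condensation factor, changed by -2.65 and -2.75. CCT3, a subunit of the cytosolic chaperonin, DDI2, a protease that activates NRF1, and LASP1, an actin-binding adaptor, also passed and are described with the siGL2 cells. PA2G4P4, RPS15AP10, RPL23AP32, HSP90AB4P and PIN4P1 are pseudogenes whose reads can come from near-identical copies, so their values are uncertain.

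**Figure D2:**
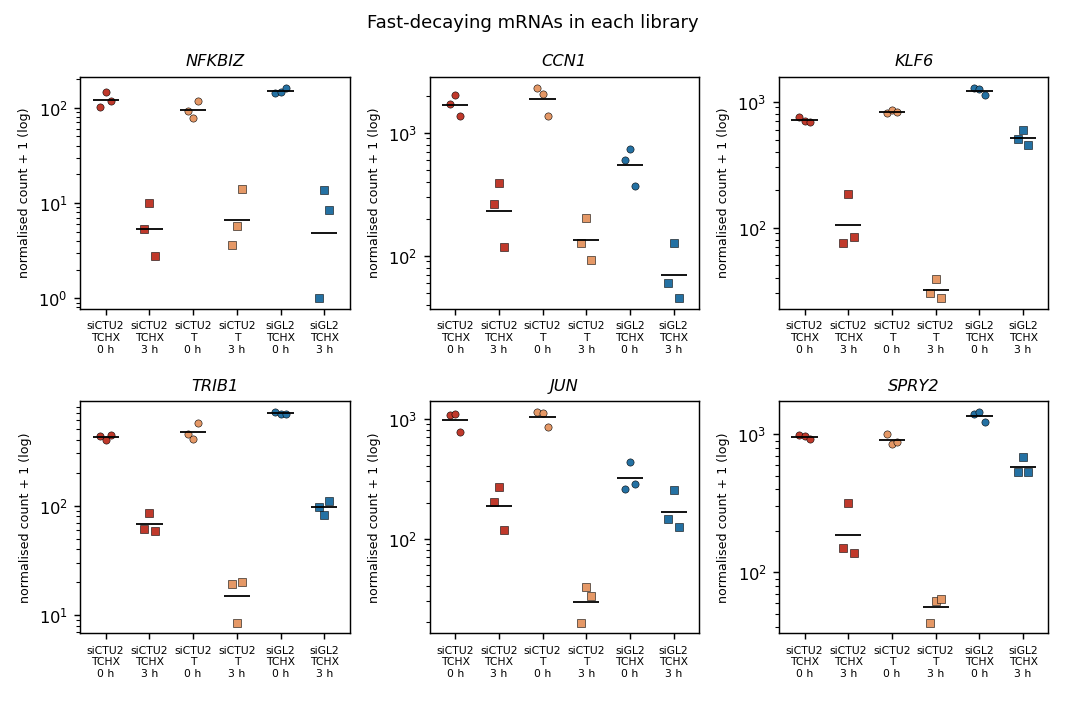
Normalised count + 1 (log axis, a separate range in each panel) of 6 fast mRNAs at 0 h (circles) and 3 h (squares) in siCTU2 TCHX (red), siCTU2 T (orange) and siGL2 TCHX (blue) cells, with 3 libraries per group and a bar at their geometric mean. In siCTU2 TCHX cells the 3 h libraries lie below all 0 h libraries in each panel, for example 117 to 389 against 1359 to 2042 for CCN1, and JUN, KLF6, TRIB1 and SPRY2 are lower still at 3 h of T.

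AU-rich pentamers are shown for 6 of these mRNAs because they are the classical sequence element of unstable early-response mRNAs. Each line gives 30 bases of the 3′ UTR in the sense of the mRNA, read from GENCODE transcripts on GRCh38, with ATTTA in capitals. CCN1 and NFKBIZ lie on the plus strand and the others on the minus strand.
CCN1, chr1:85583662-85583691: tttATTTAtggaattaaccATTTAataaag
NFKBIZ, chr3:101859489-101859518: catATTTAgttcactattatatagtgggtt
KLF6, chr10:3778792-3778821: tgtATTTAcaaatataacacaacaATTTAa
JUN, chr1:58781326-58781355: gatATTTAagaaaatacaataaactattgg
SPRY2, chr13:80336112-80336141: aatATTTAtttgaagttttattattttata
FLRT3, chr20:14325395-14325424: ataATTTAtATTTAagaactttttattaaa

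The pentamer ATTTA, sought on the sense strand, was present in the 3′ UTR of 82.1% of the 28 fast mRNAs with a transcript and in 76.2% of all 9400 tested mRNAs with one, and its density was 2.29 and 2.36 per kb. Without EEF1D and PFDN5 the share was 88.5% of 26. The longer element TTATTTATT, which contains the pentamer, was in 1 of the 28 (3.57%), B3GNT5, against 10.3% of all. It was in 15.8% of the 247 mRNAs with a log2 change between -2 and -1, in 15% of the 1540 between -1 and -0.5, in 9.12% of the 7050 between -0.5 and 0 and in 9.35% of the 535 above 0. These shares are over whole 3′ UTRs and say nothing of which factors bound.

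Whether the fast genes also fell where translation continued was examined in the T arm of siCTU2 cells. These libraries did not enter the fit that chose the fast genes, but they helped to choose the stable genes behind the scale. In the T arm 70.8% of 12558 tested genes were lower at 3 h, and of the 79 fast genes 76 were lower, against 81.1% of genes at the same 0 h level. A log2 change of -2 or less was found for 71 of the 79 in the T arm, against 4.25% of genes at that level. In the TCHX arm of siGL2 cells, where 67.7% of 12497 genes were lower, 75 of 78 fast genes were lower (78.5% of genes at that level) and 56 had a change of -2 or less (1.11%). For the 29 protein-coding members these last counts were 25 in the T arm and 12 in siGL2 cells. MIR4426 was the 1 fast gene that was higher at 3 h in siGL2 cells, by 1.67 on the log2 scale (0.355% of genes at that level were higher), and it changed by -0.27 in the T arm. MIR4426 had 90.1, 42.2 and 200 normalised counts at 0 h of siCTU2 TCHX. It had 30.6, 22.8 and 13.5 at 0 h of siCTU2 T and 19.5, 20.2 and 15.0 at 0 h of siGL2 TCHX. Its place among the fast genes thus rests on its high and uneven 0 h level in the siCTU2 TCHX group. At 5 h, where the 0 h libraries are shared with the 3 h comparison, the changes without replicate 3 were -5.84 for CCN1, -4.25 for JUN, -4.35 for KLF6 and -6.16 for MIR222HG.

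JUN in the T arm of siCTU2 cells had 1137, 1117 and 846 normalised counts at 0 h and 19, 38.8 and 32.5 at 3 h. Its change was -5.08 in the T arm and -2.36 in TCHX, and the difference between the arms was 2.71 ± 0.22 (SE, adjusted p = 6e-13, edgeR). TRIB1 differed by 2.35 ± 0.28 (adjusted p = 1.5e-08), KLF6 by 2.05 ± 0.26 (adjusted p = 4.6e-08) and CCN1 by 0.99 ± 0.19 (adjusted p = 0.00017) between the arms. NFKBIZ did not pass, with -4.55 in TCHX, -3.84 in T and a difference of -0.75 ± 0.60 (adjusted p = 0.45), and MIR222HG was at -5.45 and -5.35. ETAA1 and MCPH1 changed by -2.65 and -2.75 in TCHX and by -2.41 and -2.65 in T. Among the 29 fast mRNAs, 9 had a smaller decrease in TCHX than in T and 3 a larger one, and without EEF1D and PFDN5 these counts were 9 and 2 of 27. The shares over all genes at the same level were 20.2% and 0.385%. Because the fast genes were chosen from the TCHX libraries that enter this difference, these counts are a description.

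Across all genes the difference between the arms was mostly in 1 direction. In siCTU2 cells 2158 of 13226 genes (16.3%) fell less in TCHX than in T and 42 (0.318%) fell more. With TMM, under which the median gene does not change, these counts were 976 and 505. DUSP6, the cytoplasmic phosphatase of ERK, had 4687, 4355 and 4276 normalised counts at 0 h and 2535, 2574 and 2465 at 3 h of TCHX. In the T arm it fell from 5234, 4064 and 4350 to 147, 277 and 223, so that the arms did not overlap at 3 h and differed by 3.60 ± 0.16 on the log2 scale (adjusted p = 1.2e-21). IER5, an early-response regulator of heat shock factor, and ADM, the vasodilator peptide adrenomedullin, differed by 3.14 and 2.92. IER2, an early-response nuclear protein, fell from 2169, 2411 and 2051 to 1555, 1804 and 1245 in TCHX and differed from its T-arm change by 2.54. PFKFB4, a bifunctional enzyme of fructose-2,6-bisphosphate, changed by -0.13 in TCHX and -2.63 in T.

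The 5 clearest genes in the opposite direction fell more with cycloheximide present. LASP1 changed by -2.30 in TCHX and -1.27 in T, and TMX1, a thioredoxin-like membrane protein of the endoplasmic reticulum, by -1.90 and -0.75. TRNG and TRNF, the mitochondrial tRNAs for glycine and phenylalanine, changed by -0.37 and -0.46 in TCHX and by 0.35 and 0.31 in T. On the TMM scale their TCHX changes were -0.04 and -0.13 and did not pass (adjusted p = 0.76 and 0.20, edgeR). TRNF also started unequally, with 12640.5, 9441.7 and 10018.6 normalised counts at 0 h of TCHX and 8641.5, 7441 and 8821.9 at 0 h of T. TRNG had 5052, 5221 and 5937 at 0 h of TCHX and 3427, 4618 and 5501 at 0 h of T. Whether the blocks of RNA polymerase II and of ribosomes reached mitochondria was not tested, so these changes are not read as decay. SNORD50A, a box C/D small nucleolar RNA, had 585, 452 and 512 normalised counts at 0 h of TCHX and 157, 286 and 353 at 0 h of T, so its difference of -1.21 goes with unequal starting levels.

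**Figure D3:**
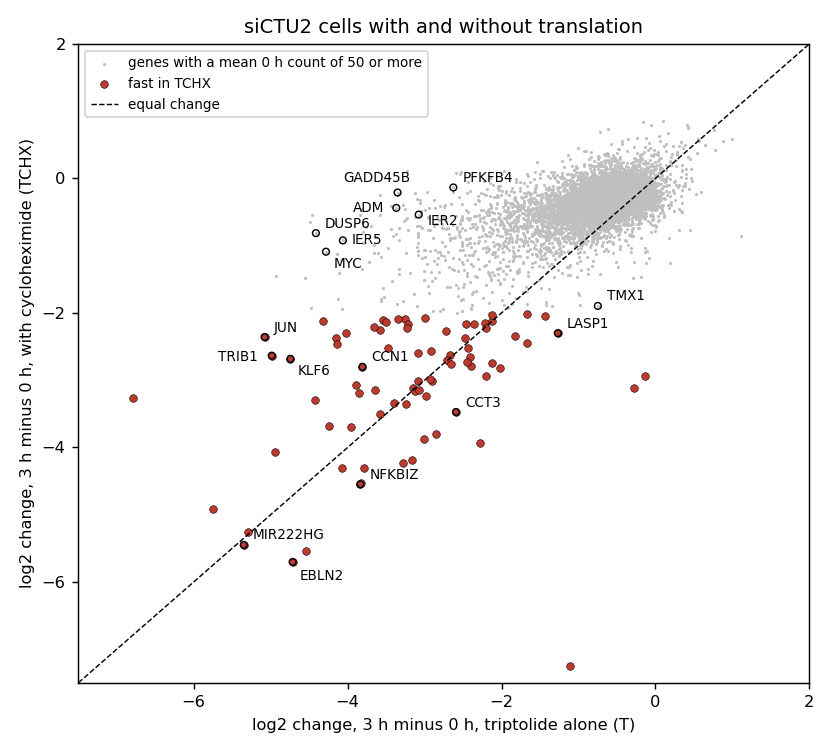
Log2 change from 0 h to 3 h in siCTU2 cells with translation blocked (TCHX, vertical axis) against the change with translation running (T, horizontal axis), with 1 point per gene at a mean of at least 50 normalised counts at 0 h and the diagonal drawn. DUSP6 lies at -0.81 and -4.41, well above the diagonal, and MIR222HG lies close to it at -5.45 and -5.35.

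The gene lists are read against all tested genes, of which 52.9% were lower in TCHX with a median of -0.326. Among genes with a mean of at least 50 normalised counts at 0 h the share was 62.6%, with a median of -0.33. Of 20 immediate early factors tested, 17 were lower at 3 h in TCHX and none higher, with a median log2 change of -0.66, and 7 were at -1 or less. EGR3 changed by -1.57, EGR1 by -1.13 and JUNB by -1.08, whereas ATF3 had 137, 202 and 171 normalised counts at 0 h and 171, 184 and 107 at 3 h and did not pass (adjusted p = 0.45, edgeR). On the TMM scale 12 of the 20 stayed lower. Of 17 ERK feedback genes, 13 were lower and none higher, with a median of -0.57, and 10 stayed lower with TMM. DUSP10 changed by -1.94, DUSP1 by -1.45 and SPRY4 by -1.15, and DUSP2 stood at 0.07 (adjusted p = 0.76, edgeR). Both lists fell further in the T arm of the same cells, with medians of -2.17 and -1.67.

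Of 16 NF-κB feedback genes, 13 were lower, with a median of -0.42 against the -0.326 of all genes, and 5 stayed lower with TMM. NFKBIA, the inhibitor that retains NF-κB in the cytoplasm, fell from 876, 978 and 808 to 215, 328 and 170 normalised counts, REL changed by -1.50 and TNFAIP3, a ubiquitin-editing inhibitor, by -1.05. CXCL8, a chemokine, had 115, 343 and 225 normalised counts at 0 h and 209, 240 and 161 at 3 h and did not pass. Of 9 TGF-β feedback and ID genes, 8 were lower with a median of -0.71, among them ID4 at -1.83 and ID2 at -1.18, and 5 stayed lower with TMM. MYC had 46.7, 70.3 and 60.4 normalised counts at 0 h and 26.2, 30.2 and 26.5 at 3 h, a change of -1.09 (adjusted p = 0.0036, edgeR), against -4.28 in the T arm.

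The next 3 lists held factors of mRNA decay itself. Of 11 genes listed as AU-rich element binding proteins, which include the stem-loop factors RC3H1 and ZC3H12A, 10 were lower with a median of -0.52. RC3H1, the stem-loop binding protein Roquin-1, fell from 658, 593 and 682 to 311, 384 and 281 normalised counts, and ZFP36L1, a deadenylase-recruiting zinc-finger protein, changed by -0.84. All 5 BTG and TOB adaptors, which bring deadenylases to mRNAs, were lower with a median of -0.63, and TOB2 changed by -1.18. Of 19 deadenylation and decapping factors, 14 were lower with a median of -0.38, and 12 lay below the median of all genes. CNOT6L, a catalytic deadenylase, changed by -1.05. On the TMM scale these 3 lists had 4, 2 and 2 genes lower and none higher.

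The difference between the arms is read against the 16.3% of all genes that fell less in TCHX than in T. Of 5 CLK kinases and L-type cyclins, which regulate splicing, 3 were lower in TCHX with a median of -0.50, and the T-arm median was -2.85. CLK1 changed by -0.73 in TCHX and -3.33 in T, and CCNL1 by -0.68 and -2.85, with all 5 members falling less in TCHX. Of 13 SR proteins, which also regulate splicing, 5 fell less in TCHX and 1 fell more. Of 9 known targets of translation-dependent decay, 5 were lower in TCHX, a share near that of all genes, and 8 of the 9 fell less in TCHX than in T. GADD45B, a stress sensor, had 200, 248 and 177 normalised counts at 0 h and 155, 234 and 155 at 3 h in TCHX, and the arms differed by 3.13 (adjusted p = 5.3e-12, edgeR). GADD45A stood at -0.01 in TCHX and at -1.58 in T, and SNHG12, a snoRNA host transcript that nonsense-mediated decay removes, at -1.45 and -2.44. Read against the 52.9% of all genes and the 62.6% at the 50-count level, KLF factors had 7 of 10 lower with a median of -0.50. The MYC network had 7 of 10 with -0.41 and the BCL2 family 9 of 13 with -0.43, and these counts are not far from the 62.6%. Of p53 targets 13 of 16 were lower with a median of -0.51, led by SESN1 at -1.18. SR proteins had 12 of 13 lower with -0.41 and snoRNA host genes 12 of 13 with -0.43. With TMM, 2 KLF factors, no MYC network gene, 2 BCL2 family genes and 5 p53 targets were lower, and none was higher. On that scale 4 SR proteins were lower and 1 higher, and 4 snoRNA host genes were lower and none higher. The list of CLK kinases and cyclins had 1 lower and 1 higher, and the known targets 4 lower and 1 higher.

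Of 74 cytosolic ribosomal protein genes, 66 were lower with a median of -0.29, and RPL17 had the largest decrease, at -0.71. On the TMM scale 2 of them were lower and 13 higher, so their direction depends on the scale. Medians were -0.30 for 30 proteasome subunits, -0.27 for 15 glycolytic enzymes, -0.32 for 30 replication and repair genes and -0.29 for 12 tRNA wobble uridine enzymes. Of these, 24, 9, 26 and 8 were lower. The glycolytic and wobble enzyme counts are near the shares of 52.9% of all genes and 62.6% at the 50-count level. On the TMM scale 1 replication and repair gene and no gene of the other lists was lower, and 3 proteasome genes and 1 replication and repair gene were higher.

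**Figure D4:**
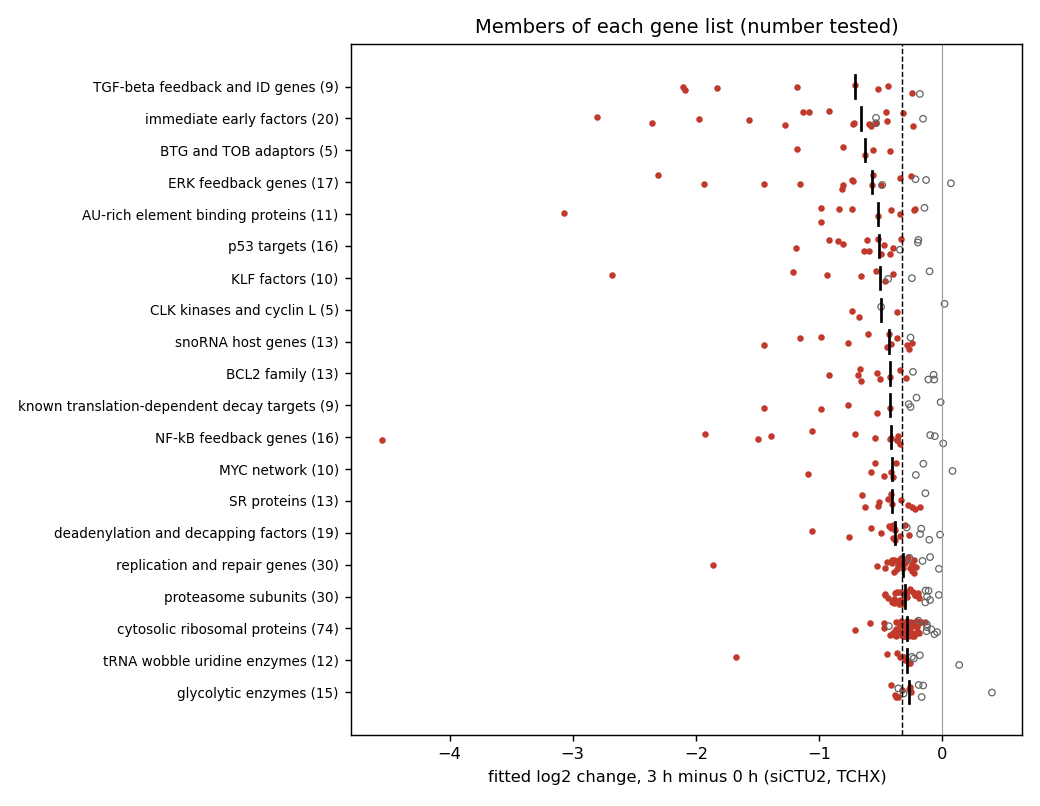
Log2 change from 0 h to 3 h in siCTU2 TCHX cells (horizontal axis) for the tested members of each gene list, 1 point per gene, filled where the gene passed the test, with a bar at the list median and a dashed line at the median of all tested genes. Immediate early, ERK feedback and TGF-β lists reach below -2 and have medians of -0.66, -0.57 and -0.71, while ribosomal protein genes cluster around -0.29.

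The depletion of CTU2 was set against siGL2 cells under the same block of translation. In siGL2 cells the median change per replicate was -0.57, -0.39 and -0.49, a mean of -0.49 ± 0.09 (SD, n = 3), against -0.33 ± 0.04 in siCTU2 cells. The values did not overlap, and the two-sided exact permutation test gave p = 0.1, the smallest value that 3 against 3 libraries allow. On the scale of stable genes chosen without the siCTU2 libraries the means were -0.76 in siCTU2 and -0.80 in siGL2 cells (p = 0.5, exact permutation test). In the test of the difference for each gene, 618 of 13250 genes (4.66%) had a smaller decrease in siCTU2 than in siGL2 cells and 78 (0.589%) a larger one. With TMM these counts were 258 and 199, and without the replicate 1 libraries they were 93 and 33.

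JUN in siGL2 cells had 260, 432 and 283 normalised counts at 0 h and 144, 253 and 125 at 3 h, a change of -0.93 against -2.36 in siCTU2 cells. Its 0 h level was higher in siCTU2 cells in every library, and the difference in change was -1.43 ± 0.18 (adjusted p = 8.2e-08, edgeR). KLF6 fell from 1291, 1255 and 1135 to 500, 597 and 449 in siGL2 cells, with a difference of -1.42 ± 0.19 (adjusted p = 2.6e-07). SPRY2 fell from 1402, 1446 and 1234 to 534, 680 and 530, with a difference of -1.07 ± 0.17 (adjusted p = 2.1e-05). SMAD7 and ID1 went the other way, with smaller decreases in siCTU2 cells by 2.32 ± 0.64 (adjusted p = 0.021) and 0.77 ± 0.22 (adjusted p = 0.022). Among the 29 fast mRNAs 9 had a larger and 2 a smaller decrease in siCTU2 cells, and without EEF1D and PFDN5 these counts were 8 and 2 of 27. The shares over all genes at this level were 0.7% and 5.93%. The siCTU2 libraries that chose the fast genes enter this difference, so these counts are a description too. The T-arm libraries did not enter the fit that chose the fast genes. In them the differences for JUN, KLF6 and SPRY2 were -0.33, -0.64 and -0.61 and did not pass (adjusted p = 0.91, 0.21 and 0.21, edgeR). For ID1 the T-arm difference was 1.55 (adjusted p = 1.8e-05, edgeR), and for SMAD7 it was 0.03 and did not pass. SMAD7 was also near the floor at 3 h of siGL2 TCHX, with 5.99, 0.71 and 2.46 normalised counts.

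The genes described next had a larger decrease in siCTU2 cells and were lower there already at 0 h. JUN and FLRT3 also had a larger decrease but were higher there at 0 h. CCT3 stood at 554, 487 and 570 normalised counts in the siCTU2 libraries of 0 h and at 28.4, 60.4 and 52.9 in those of 3 h. The siGL2 libraries held 7651, 6873 and 6745 at 0 h and 5356, 5771 and 4676 at 3 h. The siCTU2 libraries were below the siGL2 libraries at both times, and the difference in change was -3.02 ± 0.16 (adjusted p = 1.2e-21). LASP1 had 732, 744 and 677 normalised counts at 0 h in siCTU2 cells and 2909, 3438 and 2905 in siGL2 cells, and its changes were -2.30 and -0.48. DDI2 had 359, 367 and 330 against 2058, 1867 and 1948 at 0 h, with a difference in change of -1.87. SEPTIN11, a septin of the cytoskeleton, had 315, 254 and 360 against 2468, 2281 and 2626, with a difference of -1.48, and ZBTB38, a methyl-CpG binding zinc-finger protein, had 1233, 1247 and 1266 against 2996, 3003 and 2856, with a difference of -1.10. RPA2, a subunit of the single-stranded DNA binding complex, had 338, 337 and 287 against 1794, 1514 and 1483, with a difference of -1.39 (adjusted p = 6.2e-09).

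**Figure D5:**
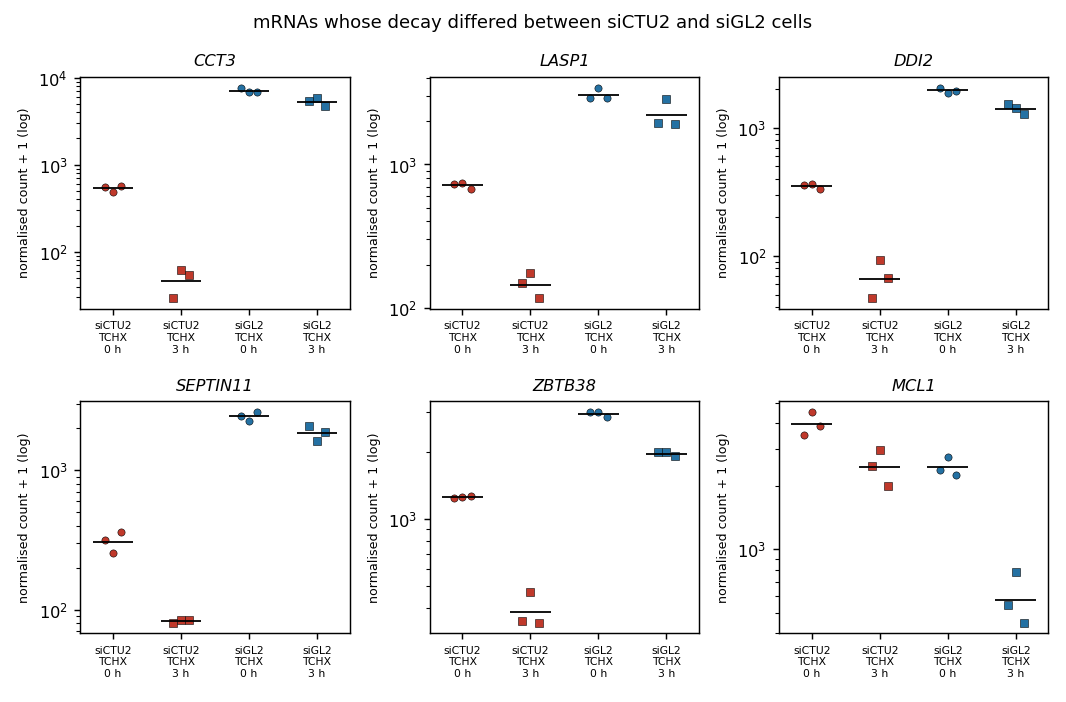
Normalised count + 1 (log axis, a separate range in each panel) in siCTU2 (red) and siGL2 (blue) TCHX cells at 0 h (circles) and 3 h (squares), with 3 libraries per group and a bar at their geometric mean. CCT3, LASP1, DDI2, SEPTIN11 and ZBTB38 are lower in siCTU2 cells at both times and fall further there, whereas MCL1 is higher in siCTU2 cells and falls less.

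The sense strands of the siRNAs are shown because their seeds can be compared with these mRNAs. Capitals mark sense positions 12 to 18, counted from the 5′ end, which equal the target letters that pair with bases 2 to 8 of the guide strand. The siRNA sequences are from the study's oligonucleotide list, and the sites below are from GENCODE transcripts on GRCh38, printed in the sense of the mRNA. Both CTU2 sites are in its coding sequence and match the siRNA at 19 of 19 positions.
siCTU2#1: cuaucaagcucAUGACCAa
siCTU2#2: gcgugaacaugAAGGACUu
siGL2: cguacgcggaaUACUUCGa
CTU2, plus strand, chr16:88713389-88713407: ctatcaagctcATGACCAa
CTU2, plus strand, chr16:88714907-88714925: gcgtgaacatgAAGGACTt
CCT3, coding sequence, minus strand, chr1:156334738-156334756: gaggcattgtgATGACCAa
DDI2, 3′ UTR, plus strand, chr1:15660411-15660429: aaaagcttcacATGACCAa

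Seed letters were common in the mRNAs with a larger decrease in siCTU2 cells. Of the 57 protein-coding genes in that group with a transcript, 46 (80.7%) held the seed complement of either siCTU2 siRNA somewhere in the transcript, against 45.2% of 9486 tested coding genes and 35.7% of the 583 with a smaller decrease. In the 3′ UTR the shares were 38.6% for each siRNA, against 10.9% and 13.9% of all, and the median 3′ UTR was 2342 bases against 1455. The CCT3 site matches siCTU2#1 at 11 of 19 positions, as does the DDI2 site, and the closest LASP1 site matches at 8. A match of letters is a description, and whether the siRNAs acted on these mRNAs was not tested. Of the 28 fast mRNAs with a transcript, 19 held such a seed complement, as did 18 of 26 without EEF1D and PFDN5. Among the 28, 7 of the 9 with a larger decrease in siCTU2 cells held it, as did 12 of the 19 without one.

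The T arm gave libraries that did not enter the TCHX fits, although they helped to choose the stable genes behind the scale. There, 160 of 12975 genes (1.23%) had a larger decrease in siCTU2 than in siGL2 cells and 53 (0.408%) a smaller one. Of the 71 genes at the 50-count level with a larger decrease in TCHX, 38 also had one in T (53.5%, against 1.57% of genes at that level) and none a smaller one, with a median difference of -0.70. At 0 h of the T arm 61 of the 71 were below their siGL2 level, where 38.4% of all genes at that count were. CCT3 differed by -2.25 (adjusted p = 3.2e-16, edgeR), DDI2 by -1.69, SEPTIN11 by -0.99, LASP1 by -0.95, ZBTB38 by -0.86 and FLRT3 by -2.45 in the T arm. Of the 601 genes with a smaller decrease in TCHX, 23 had a smaller one in T (3.83%, against 0.503%) and 2 a larger one, and the median difference was -0.06.

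MCL1, ZBTB7A, IMP3, RPUSD2 and TENT5A had the clearest smaller decreases in siCTU2 cells. MCL1, an anti-apoptotic BCL2 protein, had 3511, 4506 and 3879 normalised counts at 0 h and 2492, 2977 and 2004 at 3 h in siCTU2 cells. It fell from 2397, 2740 and 2254 to 545, 780 and 447 under siGL2, so that the groups did not overlap at 3 h and the difference was 1.41 (adjusted p = 1.3e-12, edgeR). ZBTB7A, a transcriptional repressor, changed by -0.71 against -2.04, and IMP3, a component of the U3 small nucleolar ribonucleoprotein, by -0.43 against -1.98. RPUSD2, a pseudouridine synthase, changed by -0.73 against -3.32 and TENT5A, a poly(A) polymerase, by -1.37 against -2.89. In the T arm TENT5A did not pass (0.42, adjusted p = 0.41), while RPUSD2 and ZBTB7A had differences of 2.59 and 0.93 and IMP3 passed in the same direction.

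Codon content was compared because the CTU2 enzyme modifies the tRNAs that read AAA and GAA. The fast mRNAs had a median of 5.51% of codons that were AAA or GAA, and all tested mRNAs had 5.57%. When 9379 mRNAs were ordered by this share and cut into 5 groups of equal size, the median log2 change in siCTU2 TCHX cells was -0.30, -0.31, -0.33, -0.33 and -0.36 from the lowest to the highest share. The medians in siGL2 TCHX cells were -0.37, -0.44, -0.51, -0.53 and -0.52. The median of the per-gene differences between the siRNAs was 0.08 in the lowest group and 0.17 in the highest. Across genes Spearman's rho between the codon share and the change was -0.12, and with the length of the 3′ UTR it was -0.17 (n = 9379 genes, which share libraries and base composition and are not independent replicates).

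A small set of transcripts rose while transcription was blocked. COL21A1, a fibril-associated collagen, had no read in any 0 h library and 140, 85.1 and 258 normalised counts at 3 h, at least 132-fold higher when the 0 h group is set to a floor of 3 counts over the group. LEP, the adipocyte hormone leptin, had 1 read over the 0 h group and 215, 230 and 286 normalised counts at 3 h, a ratio of 622 with a 95% counting interval of 111 to 24598. LMOD3, a muscle actin nucleator, and LOC105375696 had no read at 0 h and were at least 71.5-fold and 73.4-fold higher at 3 h, and LOC105378075 rose from 2 reads with a ratio of 81.8 (22.4 to 679). The intervals cover counting error only. LEP and COL21A1 had no read at 0 h in the T-arm siCTU2 or the siGL2 TCHX libraries either, and COL21A1 had 149 to 232 and 78.5 to 133 normalised counts there at 3 h. The source of these RNAs was not tested.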

How the data were processed

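Cytoplasmic RNA of A375 cells was sequenced as QuantSeq 3′-end libraries. The authors trimmed reads with fastp 0.20.1, aligned them to GRCh38.p13 with HISAT2 2.2.1 and deposited raw read counts per gene made with htseq-count 0.13.5 on forward reads. The strand setting is not given in the sources used here, so overlapping antisense genes cannot be told apart, and PCR duplicates were not collapsed by molecular identifiers.

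From these counts, genes stable by the study's criteria over all siRNA libraries (CPM over 0.2 at 0 h and at least 1.1 times higher later) gave median-of-ratios size factors. edgeR's quasi-likelihood test with a replicate term, after the filterByExpr low-count filter and with Benjamini-Hochberg adjustment, was the main test at an adjusted p under 0.05, and differences between groups were interaction terms over 12 libraries. DESeq2, TMM, other stable sets, no filter, no replicate term and leaving out replicates were alternatives. The tests were first run on simulated data. The genes named were the 20 largest decreases and 5 largest rises moving alike in all 3 replicates (mean normalised count of 50 or more at one time, no extra copy in the table), the 5 smallest p in each direction of each difference, fast mRNAs and list members. Members and lists were chosen with earlier results of these data known. Nothing states that replicates were separate cultures, so p-values measure the spread between these samples, which may be technical.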

Additional observations from a re-analysis of the deposited data

Results flagged for a closer look

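Differences between groups under the same time contrast passed the test of the interaction in both comparisons. Between siRNAs under TCHX, 78 genes had a larger and 618 a smaller decrease in siCTU2 cells. The log2 differences of the 10 clearest genes, siCTU2 minus siGL2, were -3.02 for CCT3, -1.82 for LASP1, -1.87 for DDI2, -1.48 for SEPTIN11, -1.10 for ZBTB38, 1.54 for IMP3, 1.33 for ZBTB7A, 1.41 for MCL1, 2.58 for RPUSD2 and 1.52 for TENT5A. CCT3, LASP1, DDI2, SEPTIN11 and ZBTB38 were also lower at 0 h in siCTU2 cells, and the part of siRNA seed matches in this was not tested.

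Between the arms of siCTU2 cells, 42 genes had a larger and 2158 a smaller decrease in TCHX than in T. The log2 differences, TCHX minus T, were -1.03 for LASP1, -0.72 for TRNG, -1.15 for TMX1, -0.77 for TRNF, -1.21 for SNORD50A, 3.60 for DUSP6, 2.54 for IER2, 3.14 for IER5, 2.92 for ADM and 2.49 for PFKFB4.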

How the results depend on the processing

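With TMM the counts at 3 h were 926 lower and 611 higher, the median change per replicate averaged -0.013, and 58 genes were fast, while GADD45A turned to 0.32. With the 8 stable genes passing at both times, those chosen without siCTU2 libraries and those chosen without 5 h libraries, 10399, 10561 and 10121 genes were lower, 86, 97 and 109 higher and 156, 136 and 123 fast, and the median was -0.86, -0.76 and -0.66. Without the genes resting on 1 library, a setting chosen after seeing the data, 77 genes were fast. All 79 fast genes stayed fast on the 3 scales of other stable genes. These scales made every fall larger, so this outcome was close to fixed in advance. With TMM, which made the falls smaller, 58 of the 79 stayed fast. DESeq2 gave 113 higher, and glmTreat against a 1.5-fold change gave 499 lower and 76 higher. At 5 h the counts were 1743 lower and 60 higher with the library that went against its label, and 1280 and 67 without it.

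For siCTU2 against siGL2, larger and smaller decreases numbered 199 and 258 with TMM and 24 and 65 with stable genes passing at both times. Smaller decreases numbered 276 with those chosen without siCTU2 libraries, and larger ones 51 with DESeq2. Leaving out 1 replicate gave 33 to 83 and 93 to 915, with the lowest counts without replicate 1. The T-arm libraries, an alternative chosen after seeing the data, gave 160 and 53. For TCHX against T, the counts were 505 and 976 with TMM, 17 and 361, 78 and 939, and 95 and 1107 with the 3 other stable sets in the order above, and 18 to 61 and 936 to 2142 without 1 replicate, lowest without replicate 1.

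Without the replicate block, larger and smaller decreases in siCTU2 numbered 20 and 85, and larger ones in TCHX 16. Deviations of same-numbered 0 h and 3 h libraries correlated at 0.06, 0.26 and 0.28, and each 0 h library correlated best with its own number. These correlations go with the pairing but are weak, above all for replicate 1. The replicate block was taken from the study's model, and nothing states that same-numbered libraries are 1 culture series. Of the fast genes, 72, 76 and 70 stayed fast without replicate 1, 2 and 3. Genes with a mean under 50 counts are not described as fast or slow at this depth.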
